A study of Homo sapiens with 36 samples.

Results

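TRIB3, CHAC1, DDIT4, SESN2, STC2, VLDLR, EIF4EBP1 and ASNS are 8 effector genes switched on by the transcription factor ATF4. They were found by symbol in the deposited gene table, each in 1 of its 58721 genes, and all 8 passed the filter on low counts. The values come from bulk RNA sequencing of H1, an established line of human embryonic stem cells, in a PERK knockout (PERK KO) and in wild type. Both genotypes went through the same differentiation toward cardiomyocytes and were sampled at days 0, 1, 2, 3, 5 and 10, with 3 libraries for each genotype and day and 36 in all. These days are those of the sample labels, and the series' design text names other days of collection, a conflict that the sources used here do not settle. Per the same text, all cells got the WNT activator CHIR99021 first and the WNT inhibitor IWP2 afterwards, and insulin was added only later than day 5. Day and medium therefore cannot be told apart in a comparison of days. How PERK was targeted and whether the PERK KO cells are 1 clone is not given in the sources used here.

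Unfolded proteins in the endoplasmic reticulum (ER) activate PERK, a membrane kinase there, and PERK then phosphorylates the translation factor eIF2 alpha. General translation then slows while ATF4 is made, and ATF4 turns on genes for amino acid supply, redox balance, restraint of growth and, on long stress, cell death. The kinases GCN2, PKR and HRI phosphorylate the same site, and several ATF4 targets also answer to hypoxia or to p53, so none of them reads PERK alone.

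Each library held 14002118 to 25860469 counted reads, and each effector gene had at least 31 counts in every library. Levels are in CPM, a gene's counts relative to the TMM-scaled library total, given per library or as mean ± SD (n = 3). Each log2 fold change stands with its SE from edgeR's quasi-likelihood fit of all 36 libraries, and a gene is called at a Benjamini-Hochberg adjusted p under 0.05 over all 19772 genes tested. The records do not state that the 3 libraries of a group are separate cultures, so p-values measure only the spread between these samples. EIF2AK3, the gene of PERK, was not called at any day, with 11.9 to 22.9 CPM over the PERK KO libraries and 10.1 to 28.1 CPM over the wild-type libraries and log2 fold changes from -0.37 to 0.45, so the gene-level counts do not show the edit. PERK KO day 0 replicate 2 stood apart, with a mean effective transcript length of 1736 nt against 2540 and 2495 nt in the other PERK KO day 0 libraries, and wild-type day 2 replicate 3 had 2400 nt against 2665 and 2610 nt. The wild-type day 3 libraries were also spread, at 2798, 2659 and 2507 nt. They all stay in the later fit without the 2 libraries that stood apart. Cell type markers moved with genotype. The summed level of 10 pluripotency markers was 9248 to 10054 CPM in PERK KO and 8863 to 9211 CPM in wild type at day 0, and at day 3 it was 9339.7 to 10076 CPM in PERK KO and 1582 to 2258 CPM in wild type, with no marker at 0. At day 2, 8 primitive streak and mesoderm markers summed to 201 to 276 CPM in PERK KO and 5974 to 7859.7 CPM in wild type, with none at 0. At day 10, 8 cardiomyocyte markers summed to 82.9 to 356 CPM in PERK KO and 12557 to 16345 CPM in wild type, with none at 0. At the same day, 6 endoderm markers summed to 318 to 535 CPM in PERK KO and 1388 to 2117 CPM in wild type, 6 fibroblast markers to 134 to 179.5 CPM in PERK KO and 2181 to 3576 CPM in wild type, and 6 endothelial and blood markers to 22.8 to 43.9 CPM in PERK KO (HBE1 at 0) and 479 to 612 CPM in wild type. The sum of 8 neuroectoderm markers was 1171 to 1414 CPM in PERK KO and 592 to 703 CPM in wild type (SOX1 at 0). Their part in the results on the effector genes was not tested, and in bulk RNA fewer cells of a type and less RNA per cell cannot be told apart.

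In GENCODE 29 on GRCh38, all 8 are protein coding genes, and the place of EIF4EBP1 is given with its values. TRIB3 lies at chr20:362835-397559 (plus strand), CHAC1 at chr15:40952962-40956519 (plus), DDIT4 at chr10:72273920-72276036 (plus) and SESN2 at chr1:28259527-28282491 (plus). STC2 lies at chr5:173314713-173329503 (minus), VLDLR at chr9:2621834-2660053 (plus) and ASNS at chr7:97852118-97872542 (minus). Overlaps matter for 3 of them, since the sources used here do not say whether counting used strand. DDIT4-AS1, on the opposite strand, covers 41.2% of the exonic bases of DDIT4, but had only 0 to 2 counts per library. AC079781.5, on the same strand, covers 44.6% of the exonic bases of ASNS, had 11 to 173 counts per library and was not called between genotypes at any day. VLDLR-AS1, on the opposite strand, covers 7.90% of the exonic bases of VLDLR, had 2 to 101 counts per library and moved with VLDLR, as given with that gene.

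ATF4 binds a composite site with C/EBP partners, and the promoters with such a match are shown because CHAC1 and ASNS, both enzyme genes, were called on the same side at some days and on opposite sides at day 2. RefSeq sequence on GRCh38.p14 was available for the promoters of 7 of the 8 genes and was searched from 250 bases before to 50 bases after the start of transcription, on both strands, for TGATGNAA. A match stood in the promoters of CHAC1 and ASNS and in 1270 of all 35116 promoters of the same length (3.62%). The 250 bases before each start follow, 5′ to 3′ on the strand of the gene, from chr15:40953221-40953470 (plus strand) for CHAC1 and from chr7:97872409-97872658 (minus strand) for ASNS, with the match in capitals.
CHAC1: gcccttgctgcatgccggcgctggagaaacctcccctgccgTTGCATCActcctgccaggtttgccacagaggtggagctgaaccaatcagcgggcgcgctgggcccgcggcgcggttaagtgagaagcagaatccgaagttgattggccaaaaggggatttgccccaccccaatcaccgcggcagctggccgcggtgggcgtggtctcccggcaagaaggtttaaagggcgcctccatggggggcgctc
ASNS: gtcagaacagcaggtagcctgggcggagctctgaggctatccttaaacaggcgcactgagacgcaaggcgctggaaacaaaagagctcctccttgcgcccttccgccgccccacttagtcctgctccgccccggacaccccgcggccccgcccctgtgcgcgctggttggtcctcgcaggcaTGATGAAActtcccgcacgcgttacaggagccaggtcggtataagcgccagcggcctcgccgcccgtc
In CHAC1 the match lies 209 to 202 bases before the start and reads on the minus strand of the gene. In ASNS it lies 68 to 61 bases before the start on the strand of the gene. The core of the hypoxia response element, ACGTG, was searched in the same way because DDIT4 also answers to hypoxia. Of the 7 promoters only that of DDIT4 held it, 125 to 121 bases before the start, as did 7518 of all 35116 promoters (21.4%). Its 250 bases before the start, chr10:72273674-72273923 on the plus strand, are printed with that core in capitals.
DDIT4: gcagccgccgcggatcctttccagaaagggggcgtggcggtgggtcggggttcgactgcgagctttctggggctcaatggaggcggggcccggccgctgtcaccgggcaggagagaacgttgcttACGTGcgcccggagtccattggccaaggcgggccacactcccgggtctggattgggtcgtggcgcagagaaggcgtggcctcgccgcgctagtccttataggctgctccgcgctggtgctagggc
A match describes these letters alone and is no evidence of binding.

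PERK KO cells did not hold the 8 genes uniformly below wild type. Over the 6 days 31 of 48 comparisons were called, 12 higher and 19 lower in PERK KO, and 5 of the 8 genes were called in both directions on different days. At day 0 only CHAC1 was called, higher in PERK KO, where 21.1% of all genes were called, 12.5% higher and 8.64% lower. The day 0 picture depends on the measure, since limma on log2 TPM called CHAC1 higher but TRIB3, STC2 and EIF4EBP1 lower in PERK KO. Day 1 had 4 genes lower (TRIB3, CHAC1, SESN2 and ASNS) and DDIT4 higher, where 15.8% of all genes were called, 8.11% higher and 7.72% lower. At day 2, 4 were higher (CHAC1, DDIT4, STC2 and VLDLR) and 3 lower (TRIB3, SESN2 and ASNS), where 42.6% of all genes were called, 20.9% higher and 21.7% lower. Day 3 had 4 higher (TRIB3, CHAC1, STC2 and ASNS) and 2 lower (DDIT4 and SESN2), where 45.1% of all genes were called, 21.9% higher and 23.2% lower. At day 5, 2 were higher (CHAC1 and ASNS) and 4 lower (TRIB3, DDIT4, SESN2 and VLDLR), where 59% of all genes were called, 28.6% higher and 30.5% lower. Day 10 had 6 of 8 lower and none higher (0 also at an unadjusted p under 0.05, by edgeR and by DESeq2), where 67.3% of all genes were called, 33.3% higher and 34% lower. The median log2 fold change of the 8 genes was 0.16, -0.63, 0.46, 0.45, -0.43 and -1.70 at days 0, 1, 2, 3, 5 and 10, beside 0.03, 0.00, -0.0018, -0.03, -0.02 and 0.00 for all genes tested. The 5 of 8 called at day 1, 7 of 8 at day 2 and 6 of 8 at day 3 lie above the share of all genes called at those days. At day 5, 6 of 8 stands beside 59%. Counted in either direction, 6 of 8 at day 10 lies close to the share of all genes (67.3%). All 6 were lower, however, where 34% of all genes were lower. The counts were not tested against these shares.

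**Figure D1:**
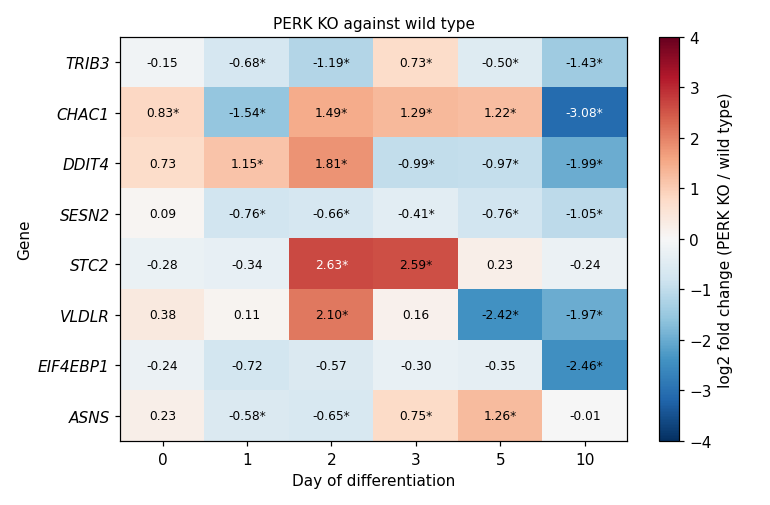
Log2 fold change of PERK KO over wild type for the 8 effector genes (rows) at each sampled day (columns), from edgeR on n = 3 libraries for each genotype and day, with * for an adjusted p under 0.05. SESN2 is lower at every day from 1 to 10, CHAC1 is -1.54 at day 1, 1.49 at day 2 and -3.08 at day 10, and 6 genes are lower at day 10.

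**Figure D2:**
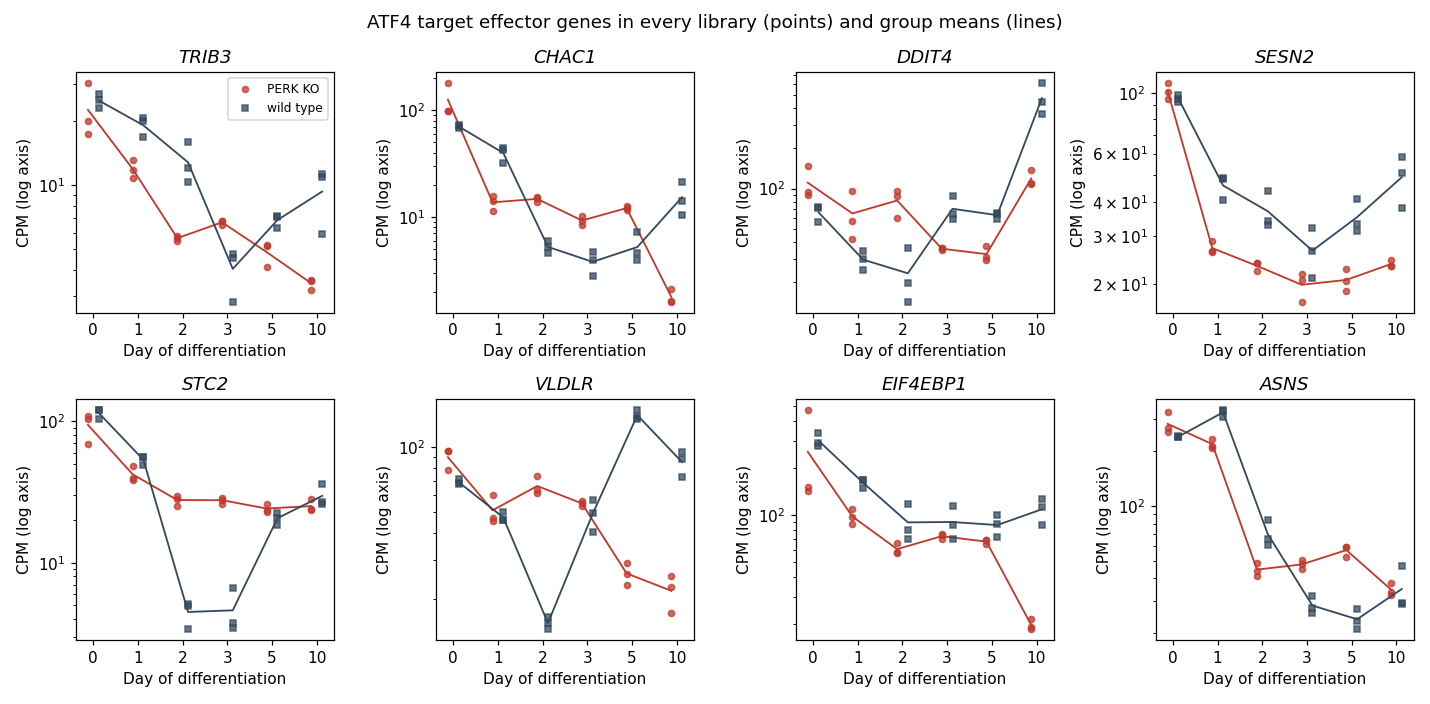
CPM of each effector gene on a log axis by day of differentiation, with red circles for PERK KO libraries, dark squares for wild-type libraries and lines through the group means (n = 3 libraries each). STC2 and VLDLR dip to their lowest group means at day 2 in wild type and not in PERK KO, and DDIT4 is highest in wild type at day 10.

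The first group of genes restrains growth signalling and translation. SESN2 encodes Sestrin 2, a leucine sensor that holds back the growth kinase complex mTORC1, and it was lower in PERK KO at all 5 days after day 0. In PERK KO it averaged 102 ± 6.82, 27.1 ± 1.37, 23.3 ± 0.937, 19.9 ± 2.34, 20.7 ± 1.96 and 23.7 ± 0.620 CPM at days 0, 1, 2, 3, 5 and 10. In wild type it averaged 95.4 ± 2.74, 45.9 ± 4.71, 37.0 ± 6.07, 26.5 ± 5.51, 35.2 ± 5.15 and 49.2 ± 10.4 CPM at days 0, 1, 2, 3, 5 and 10. The genotypes overlapped at day 0 (log2 fold change 0.09 ± 0.15, edgeR adjusted p = 0.723) and stood apart at days 1, 2, 5 and 10. At day 10 the PERK KO libraries had 24.4, 23.3 and 23.4 CPM and the wild-type libraries 38.0, 51.1 and 58.5 CPM, so every wild-type library was above every PERK KO library (log2 fold change -1.05 ± 0.15, edgeR adjusted p = 5.29e-07). The difference was -0.76 ± 0.15 at day 1, -0.66 ± 0.15 at day 2 and -0.76 ± 0.15 at day 5 (adjusted p = 0.000519, 0.000721 and 8.8e-05). At day 3 it was -0.41 ± 0.15 (adjusted p = 0.0266) with overlapping libraries, and the call was lost without wild-type replicate 2 (-0.41), wild-type replicate 3 (-0.25) or PERK KO replicate 1 (-0.32), as well as with no filter on low counts and from the 6 compared libraries alone (-0.42 and -0.43).

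TRIB3 encodes a pseudokinase that binds AKT and feeds back on ATF4. It was the least abundant of the 8 per transcript length, with a median of its 12 group means of 5.11 TPM, RSEM's length-scaled share of transcripts. At day 2 PERK KO libraries had 5.76, 5.69 and 5.49 CPM and wild-type libraries 12.1, 10.4 and 16.0 CPM, a difference of -1.19 ± 0.21 (edgeR adjusted p = 3.47e-05). At day 3 the order was the other way, with 6.54, 6.79 and 6.78 CPM in PERK KO and 2.84, 4.77 and 4.54 CPM in wild type (0.73 ± 0.22, adjusted p = 0.00655). The PERK KO level hardly differed between those days, while the wild-type level at day 3 was the lowest of its course. Without wild-type day 3 replicate 1, the lowest library, the day 3 difference was 0.53 (adjusted p = 0.0681). At day 10 PERK KO libraries had 3.57, 3.58 and 3.23 CPM and wild-type libraries 5.92, 11.3 and 10.9 CPM (-1.43 ± 0.22, adjusted p = 1.55e-06), with no overlap although wild-type replicate 1 was well below the other wild-type libraries. The smaller differences at day 1 (-0.68 ± 0.20, adjusted p = 0.0184) and day 5 (-0.50 ± 0.22, adjusted p = 0.0475) lost their calls in 4 and in all 6 of the fits that left out 1 of the 6 libraries compared. With an offset for transcript length they were -0.58 and -0.30, and with limma on log2 TPM the day 5 difference was -0.12, none of these called. At day 0 TRIB3 was 22.7 ± 6.83 CPM in PERK KO and 25.1 ± 1.84 CPM in wild type, with overlapping libraries (-0.15 ± 0.20, adjusted p = 0.641), while limma on log2 TPM called it lower (-0.48, adjusted p = 0.0163).

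DDIT4 encodes REDD1, which blocks mTORC1 under stress and hypoxia, and it changed sides between days 2 and 3. At day 1 PERK KO libraries had 42.0, 57.5 and 96.0 CPM and wild-type libraries 24.5, 29.8 and 34.0 CPM. At day 2 the values were 87.6, 60.0 and 96.7 CPM in PERK KO and 14.3, 19.8 and 35.8 CPM in wild type. PERK KO was above wild type at both days without overlap (1.15 ± 0.28 and 1.81 ± 0.28, edgeR adjusted p = 0.00333 and 4.23e-06), and the day 1 call was lost without PERK KO replicate 3, the highest library (0.76, adjusted p = 0.0748). At day 3 PERK KO had 36.2, 34.6 and 35.9 CPM and wild type 59.5, 64.0 and 88.3 CPM, now with every PERK KO library below every wild-type library (-0.99 ± 0.27, adjusted p = 0.00346). Day 5 gave -0.97 ± 0.27 (adjusted p = 0.00325), with 32.4 ± 4.32 CPM in PERK KO and 63.3 ± 3.22 CPM in wild type. DDIT4 reached its highest group mean in wild type at day 10, where PERK KO libraries had 109, 138 and 109.7 CPM and wild-type libraries 362, 617 and 442 CPM (-1.99 ± 0.28, adjusted p = 2.64e-07). At day 0 it was 111 ± 32.1 CPM in PERK KO and 66.6 ± 9.29 CPM in wild type (0.73 ± 0.27, adjusted p = 0.0528), just short of a call, and DESeq2 called it higher (0.72, adjusted p = 0.0434).

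EIF4EBP1 encodes 4E-BP1, which binds the cap factor eIF4E and represses cap-dependent translation, and it had the highest level per transcript length, with a median of its group means of 155 TPM. It lies at chr8:38030341-38060365 (plus strand). Its one call was at day 10. PERK KO libraries then had 19.2, 21.6 and 18.7 CPM and wild-type libraries 87.0, 113 and 128 CPM, far apart (-2.46 ± 0.29, edgeR adjusted p = 1.1e-08). At days 1, 2, 3 and 5 the values were -0.72 ± 0.27, -0.57 ± 0.27, -0.30 ± 0.27 and -0.35 ± 0.27, none called (adjusted p = 0.0693, 0.0916, 0.393 and 0.269). At day 1 the libraries had 97.8, 109 and 87.6 CPM in PERK KO and 149, 169 and 167 CPM in wild type and did not overlap, and DESeq2 (-0.73, adjusted p = 0.0471) and limma on log2 TPM (-0.66, adjusted p = 0.00316) called this day lower. The day 0 value rests on 1 library. PERK KO libraries had 142, 472 and 151 CPM and wild-type libraries 335, 277 and 291 CPM, so PERK KO replicate 2, the library with short transcripts, was above all of wild type and the other PERK KO libraries were below it. With that library the difference was -0.24 ± 0.27 (adjusted p = 0.576), and without it -1.03 (adjusted p = 7.62e-05), which is called. The spread of day 0 also enters the shared error of this gene. Without the 2 libraries that stood apart EIF4EBP1 was called lower at days 1 (-0.71), 3 (-0.32) and 5 (-0.34) as well (adjusted p = 0.000189, 0.0495 and 0.0283).

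The second group holds enzymes. CHAC1 encodes a gamma-glutamylcyclotransferase that breaks down glutathione, and it had the widest range of the 8, with a 70.7-fold ratio of the highest to the lowest group mean. At day 1 PERK KO libraries had 14.0, 15.6 and 11.5 CPM and wild-type libraries 32.0, 42.7 and 44.7 CPM, and every PERK KO library was below every wild-type library (-1.54 ± 0.23, edgeR adjusted p = 1.21e-05). The order was reversed at day 2, with 13.7, 15.2 and 15.4 CPM in PERK KO and 4.57, 5.18 and 5.97 CPM in wild type (1.49 ± 0.24, adjusted p = 9.78e-06). PERK KO stayed close to its day 1 level, and wild type was at a fraction of its own. Day 3 had 8.47, 10.1 and 9.19 CPM in PERK KO and 2.79, 3.94 and 4.66 CPM in wild type (1.29 ± 0.25, adjusted p = 7.57e-05). Day 5 had 12.6, 11.7 and 12.1 CPM in PERK KO and 7.15, 3.93 and 4.59 CPM in wild type (1.22 ± 0.25, adjusted p = 9.06e-05). On both days all PERK KO libraries were the higher ones. At day 10 PERK KO had 1.63, 1.61 and 2.11 CPM, its lowest level, and wild type 10.5, 21.4 and 14.0 CPM (-3.08 ± 0.27, adjusted p = 2.86e-11), the largest difference of the 8 genes at any day. At day 0 PERK KO libraries had 97.8, 181 and 99.3 CPM and wild-type libraries 67.5, 70.8 and 73.4 CPM (0.83 ± 0.22, adjusted p = 0.00764). All PERK KO libraries were above wild type, but without PERK KO replicate 2 the difference was 0.48 (adjusted p = 0.095), so the day 0 call rests on that library.

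ASNS encodes asparagine synthetase, the enzyme that makes asparagine from aspartate. Both genotypes started high, with 283 ± 38.6 CPM in PERK KO and 241 ± 1.39 CPM in wild type at day 0, and the difference was not called (0.23 ± 0.14, edgeR adjusted p = 0.266). At day 1 PERK KO libraries had 215, 208 and 235 CPM and wild-type libraries 335, 311 and 337 CPM, and at day 2 41.5, 44.3 and 48.5 CPM in PERK KO and 66.3, 61.1 and 83.4 CPM in wild type. PERK KO was lower at both days without overlap (-0.58 ± 0.15 and -0.65 ± 0.15, adjusted p = 0.00487 and 0.00061). From day 3 the order was the other way, with 45.4, 47.8 and 50.2 CPM in PERK KO and 25.7, 27.5 and 32.0 CPM in wild type (0.75 ± 0.15, adjusted p = 9.59e-05). At day 5 PERK KO had 59.8, 52.6 and 59.5 CPM and wild type 23.3, 21.1 and 27.2 CPM (1.26 ± 0.15, adjusted p = 1.83e-08), again without overlap. At day 10 the libraries overlapped, with 37.8, 32.6 and 33.9 CPM in PERK KO and 28.9, 46.8 and 29.3 CPM in wild type (-0.01 ± 0.15, adjusted p = 0.969). ASNS and CHAC1, whose promoters carry the match printed in capitals, were thus called in the same direction at days 1, 3 and 5, in opposite directions at day 2, and only CHAC1 was called at days 0 and 10.

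The third group acts at the cell surface or outside the cell. STC2 encodes stanniocalcin 2, a secreted glycoprotein, and was called at days 2 and 3. At day 2 PERK KO libraries had 28.4, 25.4 and 29.5 CPM and wild-type libraries 3.40, 5.12 and 4.93 CPM. At day 3 they had 26.2, 28.9 and 28.0 CPM in PERK KO and 3.74, 3.47 and 6.62 CPM in wild type. PERK KO was thus 6.17-fold and 6.03-fold above wild type at these days, without overlap (log2 2.63 ± 0.20 and 2.59 ± 0.20, edgeR adjusted p = 3.27e-12 and 1.99e-12). At day 5 the means were 24.2 ± 1.55 CPM in PERK KO and 20.6 ± 1.95 CPM in wild type, and at day 10 25.2 ± 2.70 CPM in PERK KO and 29.7 ± 5.36 CPM in wild type (0.23 ± 0.18 and -0.24 ± 0.18, adjusted p = 0.29 and 0.246). Neither was called, nor were days 0 and 1 (-0.28 ± 0.18 and -0.34 ± 0.18, adjusted p = 0.28 and 0.217). The calls at days 0, 1 and 5 depend on the fit. Limma on log2 TPM called day 0 lower in PERK KO (-1.04, adjusted p = 0.0132), and edgeR on the 6 compared libraries alone called day 1 lower (-0.33, adjusted p = 0.00911) and day 5 higher (0.26, adjusted p = 0.047).

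VLDLR encodes the very low density lipoprotein receptor, which takes up lipoproteins and binds reelin. At day 2 PERK KO libraries had 63.5, 61.6 and 73.4 CPM and wild-type libraries 16.4, 15.4 and 14.5 CPM (2.10 ± 0.15, edgeR adjusted p = 5.78e-13). At day 3 the libraries overlapped, with 55.4, 56.2 and 53.3 CPM in PERK KO and 49.8, 40.7 and 57.1 CPM in wild type (0.16 ± 0.14, adjusted p = 0.38). At day 5 PERK KO had 26.0, 23.1 and 29.3 CPM and wild type 134, 138 and 148 CPM, its highest group (-2.42 ± 0.15, adjusted p = 7.74e-15). The difference thus ran from PERK KO above at day 2 to PERK KO far below at day 5. It was -1.97 ± 0.15 at day 10 (adjusted p = 7.04e-13), with 22.7, 17.2 and 25.3 CPM in PERK KO and 88.5, 72.7 and 94.6 CPM in wild type. Day 0, with 89.9 ± 9.90 CPM in PERK KO and 69.0 ± 2.27 CPM in wild type, was just short of a call (0.38 ± 0.14, adjusted p = 0.0509), and was called without PERK KO replicate 2 (0.47, adjusted p = 0.0173). Day 1 was not called (0.11 ± 0.14, adjusted p = 0.682). The antisense gene VLDLR-AS1 was called higher at days 2 and 3 (2.86 ± 0.41 and 1.53 ± 0.38) and lower at days 5 and 10 (-2.21 ± 0.34 and -1.82 ± 0.36). Its highest count, 101 in 1 library, is below the lowest count of VLDLR, 276, and its part in the VLDLR values was not tested.

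The order of the 12 group means of each gene shows how far days and genotypes separate. Of the 11 neighbouring pairs in that order, the libraries did not overlap in 6 pairs for CHAC1 and for ASNS, in 5 for STC2 and VLDLR, in 3 for TRIB3 and EIF4EBP1 and in 2 for DDIT4 and SESN2. The undifferentiated groups were at the top for SESN2, where PERK KO and wild type at day 0 overlapped and both stood above all later groups, and for CHAC1, where PERK KO stood above wild type at day 0 and both above wild type at day 1. For STC2, EIF4EBP1 and TRIB3 wild type at day 0 came first and PERK KO at day 0 next, with overlapping libraries. ASNS was highest in wild type at day 1, overlapping PERK KO at day 0, VLDLR in wild type at day 5 and DDIT4 in wild type at day 10. The lowest group was PERK KO at day 10 for CHAC1, TRIB3 and EIF4EBP1, PERK KO at day 3 for SESN2, wild type at day 2 for STC2, VLDLR and DDIT4, and wild type at day 5 for ASNS. After CHAC1 the ratio of highest to lowest group mean was 25.6 for STC2, 20.3 for DDIT4, 15.2 for EIF4EBP1, 13.7 for ASNS, 9.10 for VLDLR, 7.26 for TRIB3 and 5.10 for SESN2. Per transcript length the medians of the group means lay between TRIB3 and EIF4EBP1 at 58.5 TPM for DDIT4, 44.1 for ASNS, 17.7 for VLDLR, 14.3 for CHAC1 and 12.6 for both SESN2 and STC2.

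**Figure D3:**
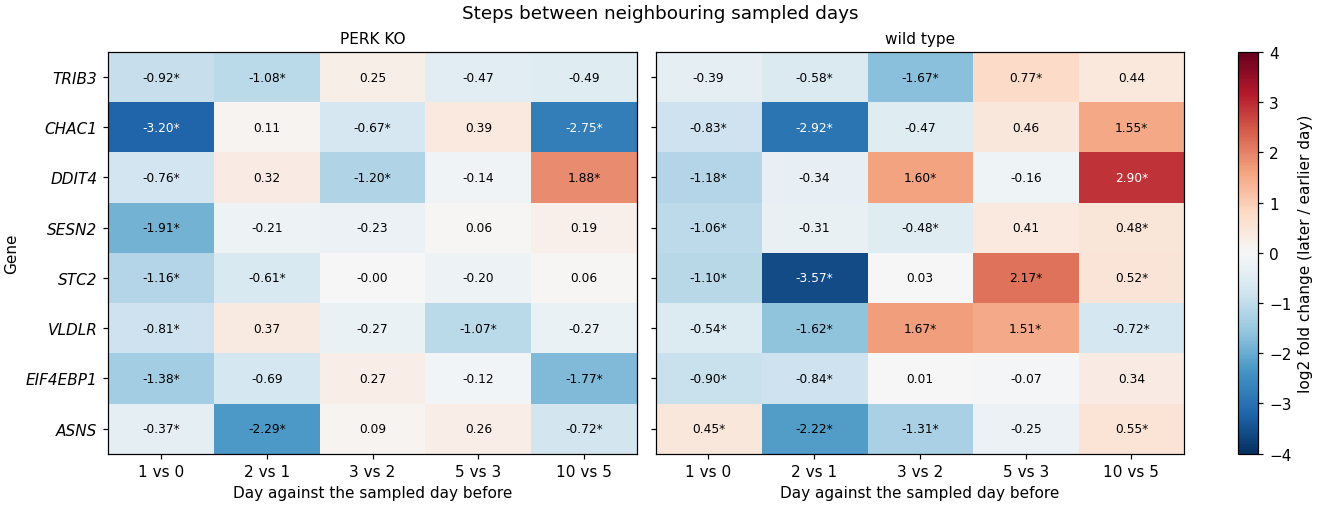
Log2 fold change between each sampled day and the sampled day before it for the 8 effector genes, in PERK KO (left) and wild type (right), with * for an edgeR adjusted p under 0.05 (n = 3 libraries in each group). All 8 genes are lower at day 1 than at day 0 in PERK KO. At the last step the wild-type panel holds 5 called rises and the PERK KO panel 1, beside 24.1% and 24% of all genes tested. These counts were not tested against those shares.

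The courses were then followed from each sampled day to the next, as later day over earlier day. In PERK KO 18 of 40 steps were called, 17 of them falls and 1 a rise. In wild type 27 of 40 were called, 16 falls and 11 rises. A step differed between genotypes, tested as PERK KO step minus wild-type step, in 18 of 40 cases. The share of all genes called in the same direction stands with the falls or rises counted at each step. For the differences of steps the share counts both directions. In PERK KO the share of rising genes is given for the last step only. Whether 1 rise is few beside all genes was therefore not tested.

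Within the first day, under the WNT activator, all 8 genes fell in PERK KO, where 43.1% of all genes tested were called and 25.1% fell. The largest fall was that of CHAC1 (-3.20 ± 0.24, edgeR adjusted p = 8.63e-12), followed by SESN2 (-1.91 ± 0.15) and EIF4EBP1 (-1.38 ± 0.27), and the smallest that of ASNS (-0.37 ± 0.14, adjusted p = 0.0391). The size and rank of the EIF4EBP1 fall depend on PERK KO day 0 replicate 2. Its PERK KO libraries had 142, 472 and 151 CPM at day 0 and 97.8, 109 and 87.6 CPM at day 1. In wild type 6 fell, where 44.6% of all genes were called and 23.7% fell, while ASNS rose (0.45 ± 0.14, adjusted p = 0.013, with 20.9% of all genes rising) and TRIB3 was not called (-0.39 ± 0.20, adjusted p = 0.114). The step itself differed between genotypes for CHAC1 (-2.37 ± 0.32, adjusted p = 2.87e-06), SESN2 (-0.85 ± 0.21, adjusted p = 0.00387) and ASNS (-0.82 ± 0.20, adjusted p = 0.00412), against 23.1% of all genes. For CHAC1 and SESN2 the fall was deeper in PERK KO, and for ASNS a fall in PERK KO stood against a rise in wild type. The PERK KO falls of ASNS and DDIT4 (-0.76 ± 0.27) were not called without PERK KO day 0 replicate 2 (-0.25 and -0.49), nor without PERK KO day 1 replicate 1 (-0.35 and -0.52) or 2 (-0.33 and -0.67). Several calls of this step were lost with limma on log2 TPM. In PERK KO the falls of STC2 (-0.34, adjusted p = 0.386), VLDLR (-0.18, adjusted p = 0.451), DDIT4 (-0.37, adjusted p = 0.19) and ASNS (-0.0056, adjusted p = 0.987) were not called by it, nor was that of VLDLR in wild type (-0.34, adjusted p = 0.141). By the same fit the differences of steps were -0.47 for SESN2 (adjusted p = 0.135) and -0.39 for ASNS and were not called, and the wild-type rise of ASNS was 0.32 and not called with the length offset.

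Between days 1 and 2 CHAC1, STC2 and VLDLR fell in wild type, and their steps differed between genotypes. PERK KO had 3 called falls, where 12.9% of all genes were called and 6.13% fell, in ASNS (-2.29 ± 0.15), TRIB3 (-1.08 ± 0.21) and STC2 (-0.61 ± 0.18). That of STC2 was not called without PERK KO day 1 replicate 3 (-0.50) or PERK KO day 2 replicate 1 (-0.62) or 2 (-0.55), nor with limma on log2 TPM (-0.63) or the length offset (-0.55). Wild type had 6, where 45.7% of all genes were called and 22.5% fell, led by STC2 (-3.57 ± 0.20), CHAC1 (-2.92 ± 0.25), ASNS (-2.22 ± 0.15) and VLDLR (-1.62 ± 0.15). Those of EIF4EBP1 (-0.84 ± 0.27) and TRIB3 (-0.58 ± 0.20) were the smallest. The call of EIF4EBP1 was lost without wild-type day 2 replicate 1 (-0.69), and that of TRIB3 without wild-type day 1 replicate 2 (-0.54) or 3 (-0.52) or wild-type day 2 replicate 1 (-0.53) or 2 (-0.45). The difference of steps was above 0 for CHAC1 (3.03 ± 0.34, edgeR adjusted p = 4.02e-08), STC2 (2.97 ± 0.27, adjusted p = 6.88e-10) and VLDLR (1.99 ± 0.20, adjusted p = 7.35e-09), against 28.6% of all genes. For ASNS and TRIB3, whose falls in PERK KO were at least as large, the difference was not called (-0.07 ± 0.21 and -0.50 ± 0.29, adjusted p = 0.844 and 0.206).

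At the next step, days 2 to 3, DDIT4 moved in opposite directions. It fell in PERK KO (-1.20 ± 0.27) and rose in wild type (1.60 ± 0.28), and the difference was -2.80 ± 0.39 (edgeR adjusted p = 1.7e-06). VLDLR rose in wild type (1.67 ± 0.15) with no call in PERK KO (-0.27 ± 0.14), a difference of -1.94 ± 0.20 (adjusted p = 8.28e-09). TRIB3 and ASNS fell in wild type (-1.67 ± 0.22 and -1.31 ± 0.15) and were not called in PERK KO (0.25 ± 0.21 and 0.09 ± 0.15), with differences of 1.92 ± 0.30 and 1.40 ± 0.21 (adjusted p = 1.22e-05 and 4.53e-06). CHAC1 fell in PERK KO (-0.67 ± 0.23, adjusted p = 0.0348), a call lost in each of the 6 fits that left out 1 of its libraries (-0.74 to -0.61). SESN2 fell in wild type (-0.48 ± 0.15, adjusted p = 0.0142), a call lost without wild-type day 2 replicate 3 (-0.36) or wild-type day 3 replicate 1 (-0.34). In all, PERK KO had 2 called falls, where 24.7% of all genes were called and 11.2% fell. Wild type had 3 falls and 2 rises, where 32.6% of all genes were called, 15.8% falling and 16.7% rising. Of the differences 4 were called (29% of all genes).

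Days 3 to 5 held 1 called step in PERK KO, where 16.3% of all genes were called and 8.86% fell, the fall of VLDLR (-1.07 ± 0.14, edgeR adjusted p = 3.41e-06). In wild type VLDLR rose (1.51 ± 0.14), as did STC2 (2.17 ± 0.20) and TRIB3 (0.77 ± 0.22), 3 rises where 18.3% of all genes were called and 9.49% rose. The rise of TRIB3 was not called without wild-type day 3 replicate 1 (0.56). All 3 differences were called (20.6% of all genes), at -2.58 ± 0.20 for VLDLR, -2.37 ± 0.27 for STC2 and -1.24 ± 0.31 for TRIB3 (adjusted p = 6.76e-11, 1.17e-07 and 0.00473).

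The last interval, days 5 to 10, spans the change to medium with insulin. DDIT4 rose in both genotypes, by 1.88 ± 0.28 in PERK KO and 2.90 ± 0.29 in wild type, and the rise was smaller in PERK KO (-1.03 ± 0.38, edgeR adjusted p = 0.0334). That difference was not called in 7 of the 12 fits that left out 1 of its libraries, and was smallest without wild-type day 10 replicate 2 (-0.79). CHAC1 fell in PERK KO (-2.75 ± 0.27) and rose in wild type (1.55 ± 0.25), the largest difference of steps of the 40 (-4.30 ± 0.37, adjusted p = 5.97e-11). ASNS likewise fell in PERK KO (-0.72 ± 0.15) and rose in wild type (0.55 ± 0.15), a difference of -1.27 ± 0.21 (adjusted p = 1.35e-05), and its wild-type rise was 0.28 and not called without wild-type day 10 replicate 2. EIF4EBP1 fell in PERK KO (-1.77 ± 0.28) with no call in wild type (0.34 ± 0.27), a difference of -2.11 ± 0.39 (adjusted p = 6.2e-05). TRIB3 was called in neither genotype, yet its difference was (-0.93 ± 0.31, adjusted p = 0.0176), except without wild-type day 10 replicate 2 (-0.77). SESN2, STC2 and VLDLR had no called difference here (-0.29 ± 0.21, -0.47 ± 0.26 and 0.45 ± 0.20). In wild type SESN2 (0.48 ± 0.15) and STC2 (0.52 ± 0.18) rose and VLDLR fell (-0.72 ± 0.14). The call of SESN2 was lost without wild-type day 5 replicate 3 (0.41) or wild-type day 10 replicate 3 (0.34), that of STC2 without wild-type day 5 replicate 1 (0.51) or 2 (0.45) or wild-type day 10 replicate 3 (0.37), and that of VLDLR with limma on log2 TPM (-0.32). PERK KO had 3 called falls and 1 rise, where 46.6% of all genes were called, 22.5% falling and 24% rising. Wild type had 1 fall and 5 rises, where 48% of all genes were called, 23.9% falling and 24.1% rising. Of the differences 5 were called (38.5% of all genes).

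Each effector gene has relatives with a like protein that are not classed here as effectors, and 11 of them are described here. They were called more often higher than lower in PERK KO at every day, with 4, 2, 6, 6, 5 and 7 higher and 1, 0, 0, 2, 1 and 4 lower at days 0, 1, 2, 3, 5 and 10. Of all genes tested, 12.5%, 8.11%, 20.9%, 21.9%, 28.6% and 33.3% were called higher at those days. The shares called lower were 8.64%, 7.72%, 21.7%, 23.2%, 30.5% and 34%. The counts of relatives were not tested against these shares. SESN1, a sestrin known as a p53 target, was higher at day 0 (1.23 ± 0.13) and at days 2 to 10 (0.36 to 0.75), while SESN2 was lower from day 1 to day 10. At day 10 SESN1 was 41.3 ± 3.88 CPM in PERK KO and 28.7 ± 2.62 CPM in wild type. CHAC2, the slower glutathione-degrading enzyme, followed CHAC1 at days 2, 3 and 5 (1.53 ± 0.24, 1.40 ± 0.25 and 2.39 ± 0.26) but not at day 10, where it was higher in PERK KO (2.35 ± 0.38) at 1.13 ± 0.0819 CPM in PERK KO and 0.198 ± 0.148 CPM in wild type, where wild type had 1 to 8 counts per library. STC1, the other stanniocalcin, was higher at days 1 and 2 (2.04 ± 0.23 and 2.42 ± 0.23), lower at day 3 (-1.01 ± 0.22) and much higher at day 10 (4.75 ± 0.25), with 167 ± 49.2 CPM in PERK KO and 6.22 ± 0.975 CPM in wild type. LRP8, the other reelin receptor, was 2.28 ± 0.16 at day 5, where VLDLR was -2.42. DDIT4L, the paralogue of DDIT4, was 3.06 ± 0.39 at day 2 and -1.78 ± 0.24 at day 10, the same directions as DDIT4, but was higher at day 3 (1.47 ± 0.27), where DDIT4 was lower. TRIB1, a scaffold for protein degradation, was 2.05 ± 0.17 at day 3 and -2.70 ± 0.17 at day 10, and TRIB2 was -1.90 ± 0.12 and 0.99 ± 0.12 at those days. EIF4EBP2 and EIF4EBP3 were lower at day 10 (-0.38 ± 0.11 and -1.29 ± 0.36), as was EIF4EBP1. SESN3 was higher at days 3, 5 and 10 (1.10 ± 0.40, 0.97 ± 0.39 and 1.09 ± 0.40), each call being lost without 1 of several libraries, among them wild-type day 3 replicate 3 (0.75), wild-type day 5 replicate 1 (0.90) and wild-type day 10 replicate 3 (0.85). ASNSD1, which has an asparagine synthetase domain, was higher at day 2 (0.72 ± 0.27) and day 10 (0.85 ± 0.27), with the calls lost without wild-type replicate 3 of the same day (0.37 and 0.62). The day 2 call of SESN1 was likewise lost without wild-type day 2 replicate 3 (0.27). Whether a relative differed from its effector gene in response was not tested.

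**Figure D4:**
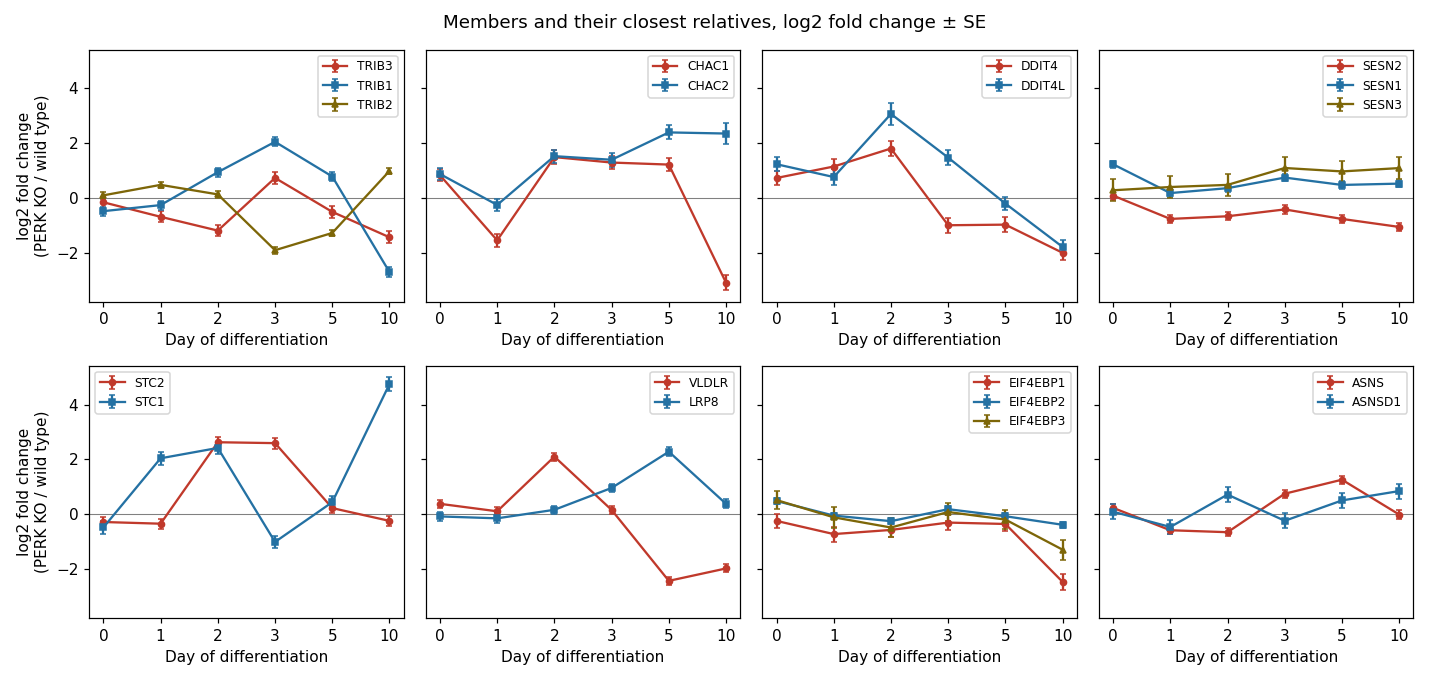
Log2 fold change ± SE of PERK KO over wild type by day for each effector gene (red circles) and its relatives (blue squares and brown triangles), from edgeR with n = 3 libraries in each group. SESN2 lies below 0 from day 1 to day 10 while SESN1 lies above it, and at day 10 CHAC1 and CHAC2, and likewise STC2 and STC1, lie far apart.

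The genes that act upstream of the effectors include the eIF2 alpha kinases, ATF4 and its partners. Of 15 measured, 3, 0, 3, 4, 4 and 3 were higher and 0, 5, 3, 2, 4 and 8 lower at days 0, 1, 2, 3, 5 and 10. Beside them, 12.5%, 8.11%, 20.9%, 21.9%, 28.6% and 33.3% of all genes tested were higher. The shares lower were 8.64%, 7.72%, 21.7%, 23.2%, 30.5% and 34%. ATF4 itself was called only at day 10 (-1.20 ± 0.18, edgeR adjusted p = 1.2e-06), with 216 ± 9.39 CPM in PERK KO and 496 ± 79.7 CPM in wild type, and its activity depends on translation, which RNA does not measure. DDIT3, which encodes the pro-apoptotic factor CHOP, was at 2.24 ± 0.0909 CPM in PERK KO and 29.3 ± 11.6 CPM in wild type at day 10 (-3.70 ± 0.28) and was also lower at day 1 (-1.01 ± 0.30), a call lost without wild-type day 1 replicate 1 (-0.74) or any 1 of the 3 PERK KO day 1 libraries. ATF3, a stress-induced repressor, was higher at days 0, 2, 3 and 5 (1.41 ± 0.18, 0.96 ± 0.19, 1.48 ± 0.19 and 1.08 ± 0.19) and lower at day 10 (-2.96 ± 0.19), the same signs as CHAC1 at those days. PPP1R15A, which encodes the phosphatase partner GADD34 that reverses eIF2 alpha phosphorylation, was lower at every day from 1 to 10 (-1.28, -0.79, -1.49, -2.13 and -2.50), as SESN2 was. At day 0 PPP1R15A was higher in PERK KO (0.79 ± 0.17, edgeR adjusted p = 0.000907), where SESN2 was not called. Of the other eIF2 alpha kinases, EIF2AK2 (PKR) was higher at days 2, 3 and 5 (1.19 ± 0.29, 0.75 ± 0.29 and 1.65 ± 0.30) and also at day 10, and EIF2AK4 (GCN2) at days 2, 3 and 5 (0.68 ± 0.12, 0.93 ± 0.12 and 1.19 ± 0.12), while EIF2AK1 (HRI) was not called at any day. The day 3 call of EIF2AK2 was lost without 1 of 4 libraries, among them wild-type day 3 replicate 3 (0.45).

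The rest of the ATF4 programme was taken as a list of 35 targets, mostly amino acid enzymes, transporters and tRNA synthetases. Of them 4, 0, 8, 15, 17 and 9 were higher and 4, 10, 10, 4, 6 and 17 lower in PERK KO at days 0, 1, 2, 3, 5 and 10, with median log2 fold changes of 0.03, -0.32, -0.03, 0.38, 0.44 and -0.29. Among all genes tested, 12.5%, 8.11%, 20.9%, 21.9%, 28.6% and 33.3% were higher at those days. The shares lower were 8.64%, 7.72%, 21.7%, 23.2%, 30.5% and 34%, and the list was not tested against them. At days 3 and 5 most called targets were thus higher, as were ASNS and CHAC1, while SESN2 and DDIT4 were lower. PSAT1, a serine synthesis enzyme, was -0.88 ± 0.10, 1.09 ± 0.10, 1.63 ± 0.10 and 1.69 ± 0.10 at days 1, 3, 5 and 10. TARS, the threonyl-tRNA synthetase, was 1.39 ± 0.21, 1.48 ± 0.22 and 2.21 ± 0.22 at days 2, 3 and 5. SLC7A11, the cystine transporter that feeds glutathione synthesis, was 2.25 ± 0.37 at day 2, 4.03 ± 0.43 at day 5 and 5.18 ± 0.43 at day 10, where CHAC1, which degrades glutathione, was -3.08. GDF15, a secreted stress hormone, was -1.22 ± 0.25 at day 0, -3.07 ± 0.32 at day 2 and -2.54 ± 0.27 at day 10. YARS, the tyrosyl-tRNA synthetase, was -1.98 ± 0.15 at day 10.

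**Figure D5:**
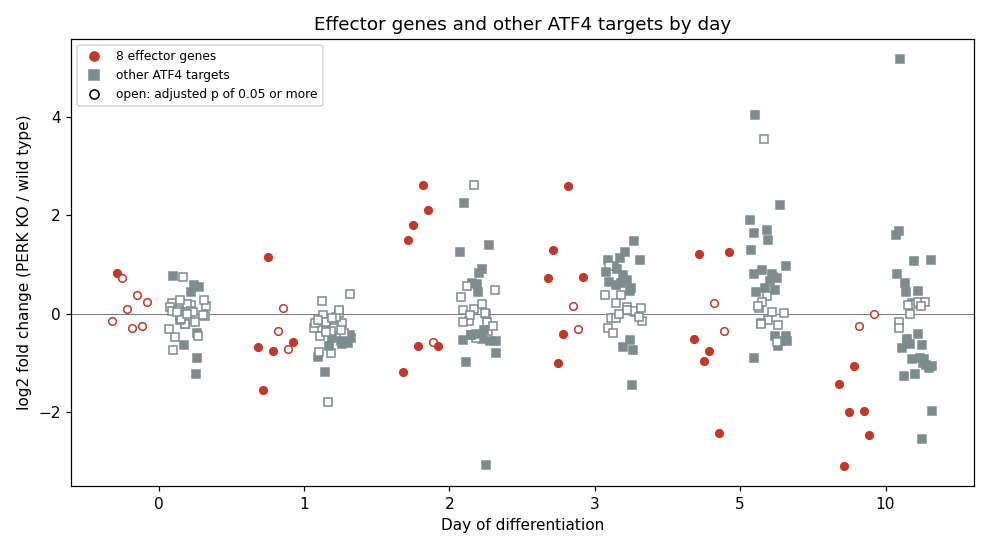
Log2 fold change of PERK KO over wild type at each day for the 8 effector genes (red circles) and 35 other ATF4 targets (grey squares), each point 1 gene from edgeR with n = 3 libraries in each group and open symbols for an adjusted p of 0.05 or more. At day 10 no effector gene is called higher while 9 of the 35 other targets are, beside 33.3% of all genes tested. At day 5 called targets lie on both sides of 0.

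Since DDIT4 and VLDLR also answer to hypoxia and SESN2 to p53, lists of those targets were counted beside them. For comparison, 12.5%, 8.11%, 20.9%, 21.9%, 28.6% and 33.3% of all genes tested were higher at days 0, 1, 2, 3, 5 and 10. The shares lower were 8.64%, 7.72%, 21.7%, 23.2%, 30.5% and 34%, and no list was tested against them. Of 16 hypoxia genes, 4, 3, 3, 5, 3 and 3 were higher and 0, 1, 3, 4, 9 and 7 lower at days 0, 1, 2, 3, 5 and 10, with medians of 0.20, 0.16, 0.33, -0.05, -1.07 and -0.33. ADM, which encodes adrenomedullin, was 3.33 ± 0.29 at day 1 and 4.63 ± 0.28 at day 2, the days when DDIT4 was higher in PERK KO, but 2.67 ± 0.25 at day 3, when DDIT4 was lower. NDRG1, a hypoxia-induced gene, went the other way, at -1.34 ± 0.27 at day 1 and -2.43 ± 0.25 at day 2, and was lower at days 3, 5 and 10 too. Its day 1 call was lost with limma on log2 TPM (-0.50) and with the length offset (-0.85). VEGFA, the vascular growth factor, was -2.25 ± 0.13 at day 5 and -2.26 ± 0.12 at day 10, and PDK1, a brake on pyruvate oxidation, was -3.50 ± 0.17 and -2.62 ± 0.16, on the same side as DDIT4 and VLDLR at those days. Of 18 p53 targets, 4, 0, 5, 3, 6 and 7 were higher and 2, 1, 7, 5, 3 and 9 lower, with medians of 0.21, -0.09, -0.24, 0.24, 0.26 and -0.44, while SESN2 was lower at each day from 1 to 10. PMAIP1, which encodes the death factor NOXA, was 4.31 ± 0.23, 4.54 ± 0.23, 4.81 ± 0.25 and 2.20 ± 0.26 at days 2, 3, 5 and 10. Other p53 targets were lower, as SESN2 was. PLK2 was -2.08 ± 0.20, -3.05 ± 0.20 and -2.53 ± 0.20 at days 1, 2 and 3, and BTG2 -2.01 ± 0.16 and -2.79 ± 0.17 at days 3 and 5. Of 18 ER chaperone and folding genes, 8, 0, 0, 0, 2 and 5 were higher and 0, 6, 12, 7, 8 and 8 lower, with medians of 0.41, -0.33, -0.48, -0.34, -0.53 and -0.27. HERPUD1, which acts in the disposal of misfolded ER proteins, was among the lower ones at days 1, 2, 3, 5 and 10 (-0.98, -1.61, -1.36, -1.65 and -2.41), as was SESN2. Among the higher ones were PDIA3 at day 0 (0.70 ± 0.10) and HSP90B1 at day 10 (1.74 ± 0.26).

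The effector genes were also compared with one another over the 12 group means of log2 CPM. These points share libraries, days and genotypes, so Pearson's r is given as a description. TRIB3, CHAC1, SESN2 and EIF4EBP1 varied together, with r between 0.76 and 0.86 in each of their 6 pairs. ASNS had r = 0.85 with TRIB3, 0.80 with CHAC1, 0.68 with EIF4EBP1 and 0.61 with SESN2. DDIT4 followed another course, with r from -0.25 with ASNS to 0.46 with VLDLR. VLDLR had r = 0.80 with TRIB3 over the 6 PERK KO group means and -0.19 over the 6 wild-type ones. With ATF4 RNA, r was 0.89 for EIF4EBP1, 0.87 for SESN2, 0.86 for TRIB3, 0.85 for CHAC1, 0.71 for ASNS, 0.57 for STC2, 0.54 for VLDLR and 0.23 for DDIT4. With DDIT3 RNA, DDIT4 had the highest r of the 8 (0.71).

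The closest courses by the same r were searched among 12454 other genes with a mean of at least 5 CPM. They included SHMT2, GARS, GPT2 and SARS from the list of 35 other ATF4 targets. Their number was not tested against the share of listed targets among the genes searched. ASNS was closest to SHMT2 (0.95), a mitochondrial serine enzyme, and GARS (0.94), the glycyl-tRNA synthetase, both in the list of other ATF4 targets. EIF4EBP1 was closest to MT-ND2 (0.95), a mitochondrially encoded subunit of complex I, and GPT2 (0.95), a mitochondrial alanine transaminase from the list of other ATF4 targets. TRIB3 was closest to BUD31 (0.93), a splicing factor, and SARS (0.92), the seryl-tRNA synthetase and another listed target. CHAC1 was closest to CD320 (0.96), the receptor for transcobalamin, and RPL22L1 (0.94), a ribosomal protein paralogue. SESN2 was closest to GRIN2D (0.94), a glutamate receptor subunit, and FDXR (0.94), ferredoxin reductase. DDIT4 was closest to NKIRAS1 (0.94), an inhibitor of NF-kappa B signalling, and RGS3 (0.92), a regulator of G protein signalling. STC2 was closest to RHOD (0.90), a small GTPase, and TNFRSF12A (0.90), the receptor of TWEAK, and VLDLR to KHK (0.85), fructokinase, and METTL7A (0.84). The highest r of VLDLR and STC2 were below those of the other 6 genes.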

How the data were processed

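Bulk RNA was sequenced from 36 libraries, grouped by the genotype, day and replicate in their labels. Per the submitters' processing notes the authors used CASAVA, FastQC, STAR and RSEM on GRCh38, with no versions in the sources used here. The deposited files hold the authors' RSEM expected counts, TPM and effective lengths per gene, per the file headers, and all 58721 gene IDs match GENCODE 29. TPM divides by length within a library and served only for levels between genes and for 1 alternative.

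In the matrix of deposited expected counts, 6.53% to 9.43% of the values of a library were not whole numbers, and all were rounded. The rounded counts were filtered with filterByExpr (19772 genes kept) and TMM scaled. They were fitted with edgeR 4.0.16 (R 4.3.3) over 12 groups with 24 residual degrees of freedom and a common dispersion of 0.0349. SE is the absolute log2 fold change over the square root of F. Tests were quasi-likelihood F tests with Benjamini-Hochberg adjustment over all genes tested within each contrast, called under 0.05. They covered PERK KO against wild type per day, each sampled day against the one before it within a genotype, and the difference of those steps. The fit was tested on simulated data. Alternatives were RLE scaling, DESeq2 1.42.0, no filter, a filter of at least 1 CPM in 6 libraries, limma 3.58.1 on log2(TPM + 1), an effective length offset, a replicate block, the 6 compared libraries alone, and leaving libraries out. Tables were joined in Python 3.11.15 (numpy 2.4.6, pandas 2.3.3) and drawn with matplotlib 3.10.9.

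The effector genes, the gene lists and the tests were chosen with earlier results of these data known. Named genes were all 8 effectors, the upstream genes and relatives, up to 3 called genes of smallest p per other list and day, and the 2 genes of highest r per effector. Another related gene is not reported here. No pair of libraries in a group agreed within sampling noise, by chi-square tests of their counts. The spread between libraries therefore limits the precision of each value beyond its counts, and the lowest count of an effector gene in a library was 31.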

Additional observations from a re-analysis of the deposited data

Results flagged for a closer look

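For 18 of the 40 steps between sampled days the change in PERK KO differed from that in wild type, by edgeR's test of the difference itself. Of all genes tested, 23.1%, 28.6%, 29%, 20.6% and 38.5% had a called difference at the steps to days 1, 2, 3, 5 and 10. The count was not tested against these shares. Values are the PERK KO log2 change minus the wild-type log2 change. From day 0 to day 1 the difference was -2.37 for CHAC1, -0.85 for SESN2 and -0.82 for ASNS. From day 1 to day 2 it was 3.03 for CHAC1, 2.97 for STC2 and 1.99 for VLDLR. From day 2 to day 3 it was 1.92 for TRIB3, 1.40 for ASNS, -1.94 for VLDLR and -2.80 for DDIT4. From day 3 to day 5 it was -1.24 for TRIB3, -2.37 for STC2 and -2.58 for VLDLR. From day 5 to day 10 it was -1.27 for ASNS, -0.93 for TRIB3, -4.30 for CHAC1, -1.03 for DDIT4 and -2.11 for EIF4EBP1. Not all of these are equally firm. The calls of SESN2 and ASNS from day 0 to day 1 were lost with limma on log2 TPM. Those of DDIT4 and TRIB3 from day 5 to day 10 were lost on leaving out single libraries, as given with that step. Steps that share a day share its libraries, so a high day raises one difference and lowers the next.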

How the results depend on the processing

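At day 0, where 1 of the 8 genes was called, the count was 3 with DESeq2, 2 with no filter and 3 with the replicate block, all higher in PERK KO. It was 4 with limma on log2 TPM (CHAC1 higher, TRIB3, STC2 and EIF4EBP1 lower), 2 without the 2 libraries that stood apart (VLDLR higher, EIF4EBP1 lower), and 0 from the 6 compared libraries alone, with or without the block. Beside those edgeR counts of 0, 3 genes without and 2 with the block had an unadjusted p under 0.05 (3 with DESeq2). Leaving out 1 library at a time gave 1 to 2 calls at day 0, 3 to 5 at day 1 (3 without PERK KO replicate 3), 7 at day 2, 5 to 6 at day 3, 5 at day 5 and 6 at day 10, and 16 to 19, 25 to 28 and 16 to 19 over the PERK KO steps, wild-type steps and their differences. Values near 0 changed sign in some settings. On leaving out 1 library TRIB3 at day 0 ran from -0.42 to 0.0032 (without PERK KO replicate 1), EIF4EBP1 at day 0 from -1.03 to 0.047 (0.047 and 0.027 without PERK KO replicates 1 and 3), and VLDLR at day 1 from -0.029 (without PERK KO replicate 3) to 0.19. With limma on log2 TPM, SESN2 was -0.18 and ASNS -0.13 at day 0. ASNS at day 10 was 0.0020 with no filter, 0.041 with the stricter filter, 0.092 with limma, 0.051 and 0.090 from the 6 libraries alone without and with the block, 0.010 without the 2 libraries apart, and 0.25, 0.039 and 0.0015 without wild-type replicate 2, PERK KO replicate 2 and PERK KO replicate 3. A called difference also changed sign. EDEM1, an ER folding gene, was lower in PERK KO at day 3 in the main fit (-0.59 ± 0.14, edgeR adjusted p = 0.00105). With the length offset it was 0.079. The cause was not tested. The CHAC1 call at day 0 was lost from the 6 libraries alone (0.83), EIF4EBP1 at day 0 was called with limma and the TRIB3 difference at day 5 was -0.12 with limma. With RLE scaling none of 111 results on the effector genes crossed the threshold or changed direction. These were the genotype comparisons by day and those steps and differences of steps that were called in the main fit. Whether the replicate numbers pair the samples cannot be settled from deviations within groups of 3 libraries. Of 18 same-number pairs across genotypes, 2 had a correlation of deviations over 0.1 (range -0.109 to 0.253, other numbers -0.253 to 0.141). Both were at day 3 (0.253 and 0.227). Blocking on the number added the day 0 calls of DDIT4 (0.71) and VLDLR (0.37) and changed no other call among the same 111 results.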
